A study of Rattus norvegicus with 15 samples.

Results

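A set of 36 genes used by the endothelial cells that line brain vessels was followed in the inferior colliculus (IC) of seizure-prone and control rats. The members were chosen by gene symbol, with the brightest probe set of each gene, and 34 of the 36 were measured under their symbol, of 14506 genes in all, each by 1 probe set (*Vwf* and *Ptprb* are not analysed here). The IC is a midbrain auditory nucleus from which seizures evoked by sound arise. RNA of the IC was hybridized to Affymetrix rat gene arrays, and the 15 arrays fell into 4 groups by their labels. The WAR S group held 5 arrays of Wistar audiogenic rats (WAR), a strain bred for such seizures, after acoustic stimulation. The Wistar S group held 2 arrays of Wistar albino rats that received the same stimulation. The WAR N group held 4 arrays of WAR and the Wistar N group 4 arrays of Wistar albino rats, both naïve, that is, without stimulation. All rats were males 12 weeks old, and the IC of stimulated rats was taken 60 min after the sound. By the labels, the WAR came from a medical school in Brazil and the Wistar rats from a commercial breeder, so strain and supplier cannot be told apart. In WAR S a seizure came with the sound, so the effects of sound and seizure cannot be told apart in that group.

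Brain endothelial cells form the blood-brain barrier. Tight and adherens junctions seal the cells to each other, carriers in their membranes bring glucose, lactate, amino acids, lipids and iron into the brain, and few vesicles cross them. Growth factor receptors of the VEGF and angiopoietin systems keep the vessels alive and quiet, and transcription factors of the SOX, ETS and TCF/LEF families hold the endothelial and barrier identity. The members were grouped here as junction and adhesion genes, sialomucins, secreted factors, transporters, receptors, transcription factors, and a group of the nitric oxide synthase *Nos3* with 2 other genes of the membrane.

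Values are log2 intensities, so that a difference of 1 is a 2-fold difference. Any pair of stimulated arrays shared exactly equal values for 2675 to 3286 probe sets, pairs of naïve arrays shared 2 to 13, and no stimulated array shared any with a naïve one. Members hold such values too, such as *Flt1* in WAR S 4 and WAR S 5 and *Ramp2* in WAR S 2 and WAR S 5. Their effect on the spread of the stimulated arrays, and on the estimate of the spread that both comparisons of strains share, was not tested. Medians over all genes were 7.79 to 7.88 in stimulated and 7.65 to 7.70 in naïve arrays. Whether both parts were normalized together was not tested, and strains were compared only within each part. The array Wistar N 1 stood apart from Wistar N 2 to 4. Its mean over the 34 members was 7.88, against 7.12, 7.09 and 7.02 in the other 3 Wistar N arrays, while its median over all genes was 7.65, against 7.66 to 7.68. Strain differences of the naïve arrays are therefore given with and without it. The members' own values thus singled out this array. Its omission raises the difference of any member for which it lies above the other Wistar N arrays. Calls of members without it are therefore no separate test. The strains were compared with limma over all 15 arrays, which share an estimate of the spread, and p-values were adjusted over the 14506 genes with a threshold of 0.05. In whole tissue, fewer endothelial cells and less RNA per cell cannot be told apart.

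Every member that passed the threshold with all arrays was higher in WAR than in Wistar rats, in both parts. Among stimulated arrays, 4 of 34 members were higher in WAR S (*Tek*, *Adgrf5*, *Nostrin* and *Itm2a*; 0.214% of all genes were called higher) and 0 were lower (0.2% of all genes). At an unadjusted p of 0.05 in limma, 19 were higher (55.9%, against 4.02% of all genes) and 0 lower (2.83% of all genes). The log2 fold change was positive for 32 of 34 members, with a median of 0.52, against 0.01 over all genes. All 5 WAR S arrays lay above both Wistar S arrays for 28 members (82.4%, against 12.4% of all genes). Among naïve arrays, 12 of 34 members were higher in WAR N (*Ocln*, *Pecam1*, *Cd34*, *Emcn*, *Egfl7*, *Tek*, *Adgrf5*, *Adgrl4*, *Sox17*, *Lef1*, *Nostrin* and *Itm2a*; 11.6% of all genes were called higher) and 0 were lower (9.38% of all genes). At an unadjusted p of 0.05 in limma, 15 were higher (44.1%, against 19.1% of all genes) and 0 lower (15.4% of all genes). The median was 0.39, against 0.02 over all genes, and all WAR N arrays lay above all Wistar N arrays for 7 members (20.6%, against 7.93% of all genes).

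These counts depended on single arrays. Without Wistar N 1, 27 members were higher in WAR N (22.6% of all genes) and 1, *Slc16a1*, was lower (18.5% of all genes), the median was 0.67, and WAR N lay above the remaining Wistar N arrays for 24 members (70.6%, against 21.7% of all genes). Since the groups share the spread, the same omission gave 12 members higher in WAR S (1.1% of all genes). When the model held stimulated arrays alone, 10 members were higher in WAR S (1.19% of all genes), the 4 above and *Pecam1*, *Cd34*, *Egfl7*, *Flt1*, *Adgrl4* and *Ramp2*. When it held naïve arrays alone, 6 were higher in WAR N (3.24% of all genes), *Ocln*, *Tek*, *Adgrf5*, *Adgrl4*, *Nostrin* and *Itm2a*. Without Wistar S 1 (0.0276% of all genes called higher) or without Wistar S 2 (0.0207%), 2 members, *Nostrin* and *Itm2a*, remained higher in WAR S. By the running numbers in their labels the arrays form 2 series, which no source names as batches. Both Wistar S arrays belong to the first, and with WAR S 1, 2 and 5 the comparison called *Nostrin* and *Itm2a* (0.0551% of all genes were called higher), with a median over the members of 0.39. Within the first series the naïve comparison (WAR N 1 and 2 against Wistar N 1 and 4) called the same 2 members (0.738% of all genes) with a median of 0.11, and within the second (WAR N 3 and 4 against Wistar N 2 and 3) it called 24 (70.6%, against 12.4% of all genes) with a median of 0.73.

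**Figure D1:**
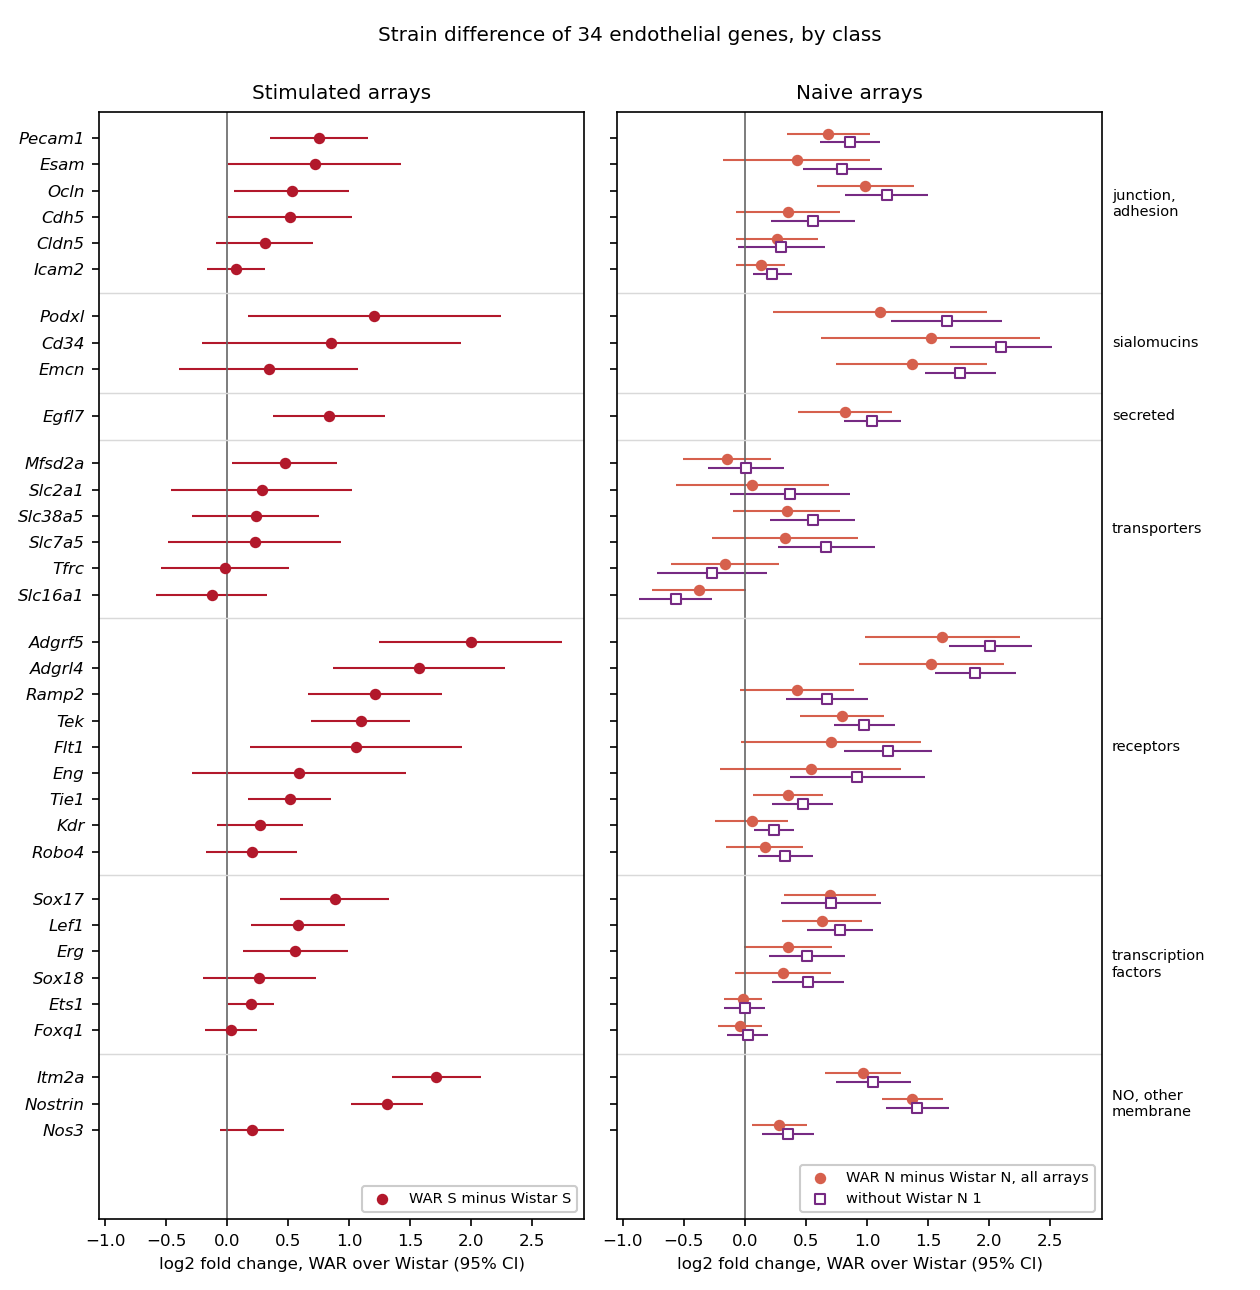
Log2 fold change of WAR over Wistar for the 34 endothelial genes, grouped by class, with 95% confidence intervals from limma: left, stimulated arrays (WAR S, n = 5, and Wistar S, n = 2); right, naïve arrays (WAR N, n = 4, and Wistar N, n = 4), with circles for all arrays and squares without Wistar N 1. The receptors *Adgrf5* and *Adgrl4* and the genes *Itm2a* and *Nostrin* lie far to the right in both panels. The transporters lie on both sides of 0, with a median of 0.23 on the left and −0.04 for the circles on the right. Among the squares, *Slc7a5* lies at 0.67, *Slc38a5* at 0.55 and *Slc16a1* at −0.57.

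For 7 members (*Ocln*, *Egfl7*, *Tek*, *Adgrf5*, *Adgrl4*, *Nostrin* and *Itm2a*) every WAR array lay above every Wistar array in both parts. Over all genes, 12.4% met this rule among stimulated and 7.93% among naïve arrays. The share of all genes that met it in both parts was not counted, and it cannot exceed 7.93%. The 7 members are those that met the rule among naïve arrays (20.6%), so their count equals the naïve one. Promoters of 5 of these members, 250 bases before to 50 bases after the start in RefSeq (build GRCr8, 5′ to 3′), are shown because the members met this rule in both parts. Capitals mark the core of the ETS motif, AGGAAG or CGGAAG on either strand, which *Erg* and *Ets1*, 2 of the transcription factor members, bind. *Egfl7* has 2 starts.
*Itm2a* (chrX:76565095-76565394, minus strand): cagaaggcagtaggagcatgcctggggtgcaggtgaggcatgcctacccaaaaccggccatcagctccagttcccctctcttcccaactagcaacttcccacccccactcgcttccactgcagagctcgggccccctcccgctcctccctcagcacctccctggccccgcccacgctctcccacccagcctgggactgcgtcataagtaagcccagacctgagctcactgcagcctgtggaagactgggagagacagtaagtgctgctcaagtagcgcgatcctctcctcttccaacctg
*Adgrf5* (chr9:25121188-25121487, minus strand): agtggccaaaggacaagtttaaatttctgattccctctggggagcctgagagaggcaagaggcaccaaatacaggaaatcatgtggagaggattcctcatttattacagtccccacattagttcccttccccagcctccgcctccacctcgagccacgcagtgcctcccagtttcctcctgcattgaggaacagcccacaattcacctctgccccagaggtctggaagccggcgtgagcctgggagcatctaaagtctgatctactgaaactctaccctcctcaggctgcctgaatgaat
*Adgrl4* (chr2:243014689-243014988, plus strand): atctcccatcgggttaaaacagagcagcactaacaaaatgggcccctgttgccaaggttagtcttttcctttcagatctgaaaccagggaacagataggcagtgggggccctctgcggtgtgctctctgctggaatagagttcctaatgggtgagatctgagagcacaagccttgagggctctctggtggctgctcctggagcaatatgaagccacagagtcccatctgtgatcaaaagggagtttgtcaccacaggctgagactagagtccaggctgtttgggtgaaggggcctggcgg
*Ocln* (chr2:33441149-33441448, minus strand): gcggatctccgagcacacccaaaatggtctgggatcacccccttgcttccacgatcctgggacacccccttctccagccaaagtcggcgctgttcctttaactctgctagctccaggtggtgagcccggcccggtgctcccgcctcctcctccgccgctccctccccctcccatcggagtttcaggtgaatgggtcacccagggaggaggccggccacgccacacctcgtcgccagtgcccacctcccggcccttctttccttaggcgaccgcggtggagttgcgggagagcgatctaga
*Egfl7* (chr3:29805381-29805680, plus strand): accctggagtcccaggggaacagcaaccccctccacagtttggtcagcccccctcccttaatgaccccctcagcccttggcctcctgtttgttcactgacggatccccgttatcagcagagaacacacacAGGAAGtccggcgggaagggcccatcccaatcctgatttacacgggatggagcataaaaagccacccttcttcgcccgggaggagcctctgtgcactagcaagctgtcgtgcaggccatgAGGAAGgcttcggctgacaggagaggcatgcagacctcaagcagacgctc
*Egfl7* (chr3:29808051-29808350, plus strand): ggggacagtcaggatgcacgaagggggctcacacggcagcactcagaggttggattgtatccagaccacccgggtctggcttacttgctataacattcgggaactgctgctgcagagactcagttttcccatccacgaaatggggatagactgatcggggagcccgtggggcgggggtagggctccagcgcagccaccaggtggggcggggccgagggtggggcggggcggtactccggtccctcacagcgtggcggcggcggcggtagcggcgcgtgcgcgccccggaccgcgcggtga
Of these windows, only the first of *Egfl7* held the ETS core, in 2 places. Over the 24 promoters of the 23 members that matched RefSeq, 10 (41.7%) held it, against 45.6% of 33365 promoters of the same length, and the SOX core ACAAT, which does not overlap it, was in 29.2%, against 33.6%. Such matches describe letters in these windows and not bound sites.

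*Nostrin* and *Itm2a* passed the threshold in both parts with the smallest adjusted p of the members. *Nostrin* encodes an adaptor protein that controls where the endothelial nitric oxide synthase sits in the cell. Its values were 8.21, 8.32, 8.10, 8.14 and 8.09 in WAR S, against 6.96 and 6.76 in Wistar S. In naïve rats they were 7.86, 7.71, 7.93 and 8.25 in WAR N, against 6.69, 6.67, 6.61 and 6.29 in Wistar N. The groups were far apart in both parts, and Wistar N 1, the first of the Wistar N values, lay 0.17 above the mean of the other 3. The log2 fold change was 1.31 (standard error 0.14, adjusted p = 0.000545 from limma) among stimulated and 1.37 (0.12, adjusted p = 2.11e-05) among naïve arrays, 1.41 without Wistar N 1. *Itm2a* encodes a membrane protein enriched in brain endothelium. It measured 9.78, 9.94, 10.38, 9.91 and 9.86 in WAR S, against 8.35 and 8.17 in Wistar S. The naïve values were 9.94, 9.73, 9.83 and 10.26 in WAR N, against 9.23, 8.92, 8.73 and 9.01 in Wistar N. The strains overlapped in neither part, and the difference was 1.71 (standard error 0.17, adjusted p = 0.000486 from limma) among stimulated and 0.97 (0.14, adjusted p = 0.00107) among naïve arrays, 1.05 without Wistar N 1. *Nos3*, the synthase itself, did not pass the threshold in either part, with 0.20 among stimulated (adjusted p = 1 from limma) and 0.28 among naïve arrays (adjusted p = 0.072), and reached 0.35 without Wistar N 1 (adjusted p = 0.011).

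**Figure D2:**
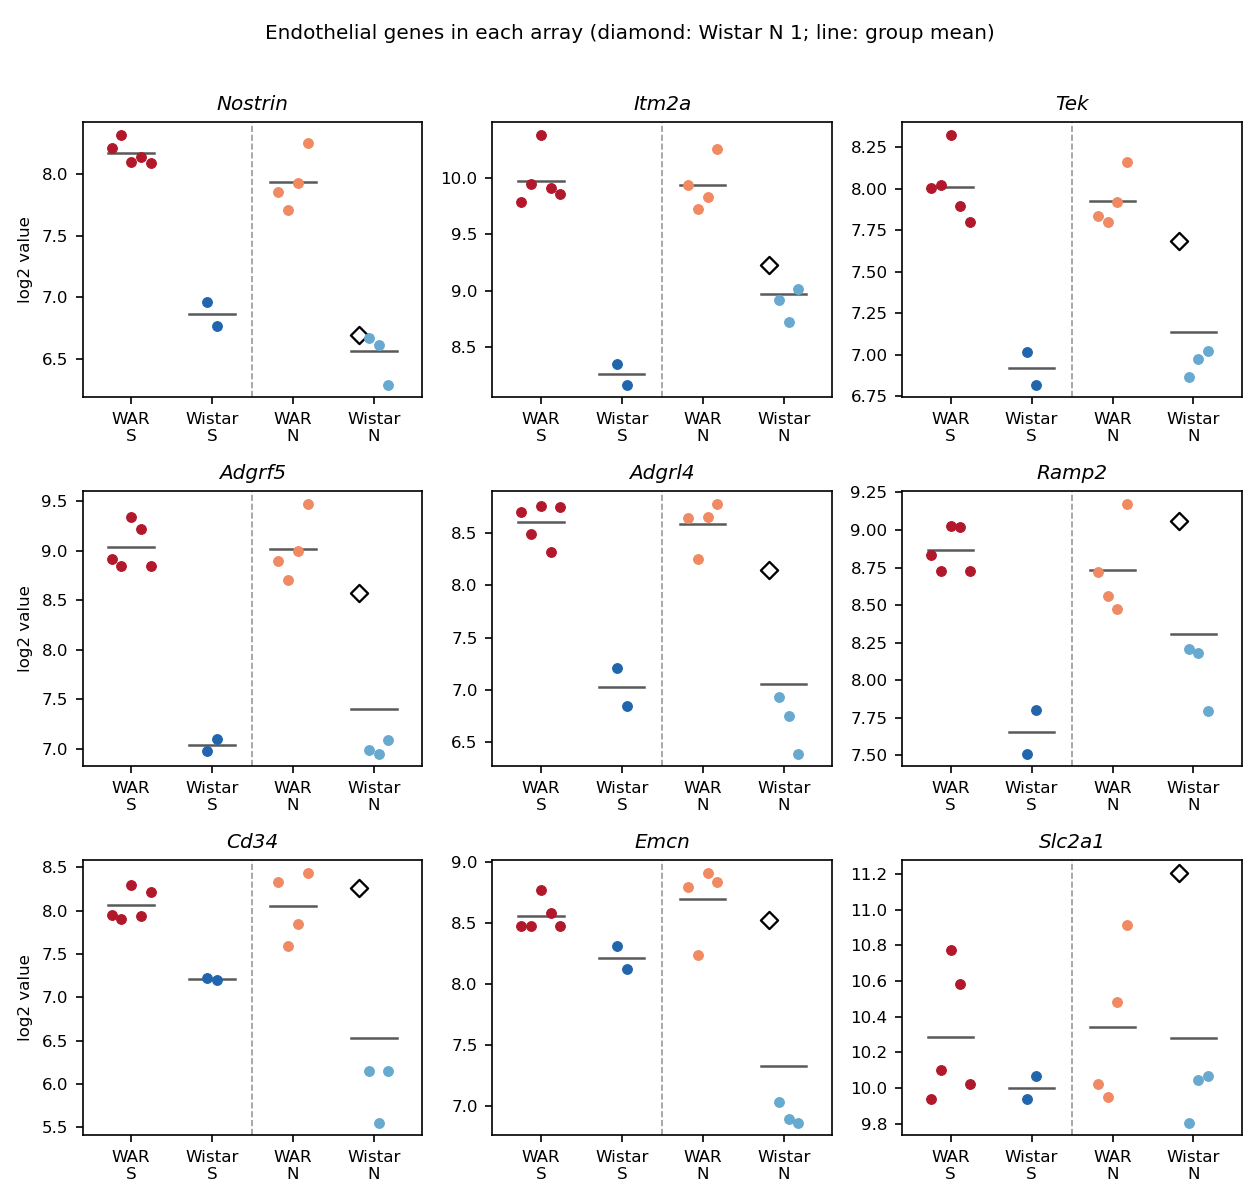
Log2 value of 9 endothelial genes in each array of WAR S (n = 5), Wistar S (n = 2), WAR N (n = 4) and Wistar N (n = 4), with lines at the group means, the diamond for Wistar N 1, and a dashed line between the parts, whose levels were not compared. For *Nostrin* the diamond lies with the other Wistar N arrays at 6.69, for *Cd34* at 8.27 it lies among the WAR N arrays, and for *Slc2a1* at 11.21 it lies above all of them.

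Among stimulated arrays the largest difference of any member was that of a receptor. All 9 measured receptors had positive fold changes in both parts. Their median was 1.06 among stimulated arrays (2 called), 0.54 among naïve arrays (3 called) and 0.92 without Wistar N 1 (9 called). Of all genes, 0.214%, 11.6% and 22.6% were called higher in these comparisons, in the same order. *Adgrf5*, an adhesion G protein-coupled receptor of endothelium, had values of 8.92, 8.84, 9.34, 9.22 and 8.84 in WAR S, against 6.98 and 7.09 in Wistar S. Its naïve values were 8.90, 8.70, 8.99 and 9.48 in WAR N, against 8.57, 6.99, 6.95 and 7.08 in Wistar N. The stimulated groups lay far apart, whereas among naïve arrays Wistar N 1 came within 0.13 of the lowest WAR N array. The difference was 2.0 (3.99-fold, standard error 0.35, adjusted p = 0.0212 from limma) among stimulated and 1.62 (3.07-fold, 0.30, adjusted p = 0.00276) among naïve arrays, 2.01 without Wistar N 1.

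*Adgrl4*, a related receptor that takes part in vessel growth, had 8.70, 8.49, 8.75, 8.31 and 8.75 in WAR S, against 7.21 and 6.85 in Wistar S. Its values were 8.64, 8.25, 8.65 and 8.78 in WAR N, against 8.15, 6.93, 6.75 and 6.39 in Wistar N. The groups did not overlap in either part, with Wistar N 1 just below the WAR N arrays. The difference of 1.57 among stimulated arrays missed the threshold (standard error 0.33, adjusted p = 0.0543 from limma; 0.0135 with only the stimulated arrays), and that of 1.52 among naïve arrays passed it (0.28, adjusted p = 0.00274), with 1.89 without Wistar N 1. *Tek*, the receptor of the angiopoietins, had 8.01, 8.02, 8.33, 7.90 and 7.80 in WAR S, against 7.01 and 6.82 in Wistar S. It had 7.83, 7.80, 7.92 and 8.16 in WAR N, against 7.69, 6.87, 6.97 and 7.02 in Wistar N. Again the strains were separate in both parts and Wistar N 1 lay nearest to WAR N. The differences were 1.09 (standard error 0.19, adjusted p = 0.0212 from limma) and 0.79 (0.16, adjusted p = 0.00447), 0.98 without Wistar N 1.

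Of the other receptors, *Ramp2*, which shapes the receptor for adrenomedullin, had 8.73 to 9.03 in WAR S, against 7.51 and 7.80 in Wistar S. The groups were separate, and the difference of 1.21 had an adjusted p of 0.0605 from limma (0.0135 with only the stimulated arrays). Among naïve arrays it had 8.47 to 9.18 in WAR N, while Wistar N held 9.06 in Wistar N 1 and 7.79 to 8.21 in the others, a difference of 0.42 (adjusted p = 0.185), 0.67 without Wistar N 1 (adjusted p = 0.00321). *Flt1*, a VEGF receptor that also acts as a decoy, had 8.41 to 9.04 in WAR S, against 7.43 and 7.56 in Wistar S. It had 8.29 to 9.01 in WAR N, while Wistar N held 9.25 in Wistar N 1, above every WAR N array, and 7.28 to 7.44 in the others. Its differences of 1.06 among stimulated (adjusted p = 0.521 from limma; 0.0492 with only the stimulated arrays) and 0.70 among naïve arrays (adjusted p = 0.164) did not pass with all arrays, and 1.17 without Wistar N 1 did (adjusted p = 8.07e-05).

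*Kdr*, the main signalling receptor of VEGF, differed by 0.27 among stimulated and 0.05 among naïve arrays, and the naïve difference turned to −0.02 after a cyclic loess normalization. *Tie1*, the partner of *Tek*, differed by 0.51 and 0.35, *Eng*, a co-receptor for BMP and TGF-β ligands, by 0.59 and 0.54, and *Robo4*, which keeps vessels from leaking, by 0.20 and 0.16, none past the threshold of limma with all arrays. Without Wistar N 1 these 4 differed by 0.24, 0.47, 0.92 and 0.33, and all 4 passed.

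Junction and adhesion genes had differences that were all positive. Their medians were 0.52 among stimulated arrays (0 of 6 called), 0.39 among naïve arrays (2 called) and 0.68 without Wistar N 1 (5 called). The shares of all genes called higher were 0.214%, 11.6% and 22.6%, in the same order. At an unadjusted p of 0.05 in limma, the stimulated difference passed for *Ocln*, *Cdh5*, *Pecam1* and *Esam*. *Ocln*, a tight junction protein, had 7.91, 7.95, 7.43, 7.43 and 7.45 in WAR S, against 7.13 and 7.07 in Wistar S. It had 8.29, 8.39, 7.98 and 7.92 in WAR N, against 7.68, 6.74, 7.10 and 7.11 in Wistar N. The groups did not overlap in either part, with differences of 0.53 (standard error 0.22, adjusted p = 0.608 from limma) and 0.99 (0.19, adjusted p = 0.00318), 1.16 without Wistar N 1. *Pecam1*, an adhesion molecule between endothelial cells, had 7.51, 7.49, 7.80, 7.49 and 7.51 in WAR S, against 6.67 and 6.94 in Wistar S. Its values were 7.57, 7.38, 7.39 and 7.81 in WAR N, against 7.39, 6.69, 6.80 and 6.54 in Wistar N. Wistar N 1 was level with the 2 lowest WAR N arrays and the other 3 lay below all of WAR N, with differences of 0.75 among stimulated (standard error 0.19, adjusted p = 0.135 from limma; 0.0331 with only the stimulated arrays) and 0.68 among naïve arrays (0.16, adjusted p = 0.00877; 0.0591 with only the naïve arrays), 0.86 without Wistar N 1.

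*Cldn5*, the main claudin of the brain barrier, had 7.76 to 8.31 in WAR S, against 7.54 and 7.64 in Wistar S. Naïve arrays ran between 7.29 and 8.00 in WAR N and between 7.18 and 7.55 in Wistar N, and the groups overlapped with or without Wistar N 1, at 7.52. The differences were 0.31 (adjusted p = 0.992 from limma) and 0.26 (adjusted p = 0.257), 0.30 without Wistar N 1 (adjusted p = 0.171). *Cdh5*, the cadherin of adherens junctions, differed by 0.52 and 0.35, *Esam*, an adhesion molecule at tight junctions, by 0.72 and 0.42, and *Icam2*, which leukocytes bind, by 0.07 and 0.13. Without Wistar N 1 these 3 differed by 0.56, 0.80 and 0.22 among naïve arrays and passed the threshold of limma, with Wistar N 1 above all WAR N arrays for *Esam* (8.54, against 7.46 to 8.08).

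The sialomucins are heavily glycosylated proteins of the luminal surface. Among naïve arrays they differed by a median of 1.37 (2 of 3 called), and by 1.76 without Wistar N 1 (3 called). Among stimulated arrays the median was 0.85 (0 of 3 called), and *Podxl* passed an unadjusted p of 0.05 in limma. Of all genes, 11.6%, 22.6% and 0.214% were called higher in these comparisons, in the same order. *Cd34* had 7.95, 7.90, 8.30, 7.94 and 8.22 in WAR S, against 7.22 and 7.19 in Wistar S. It had 8.33, 7.59, 7.85 and 8.44 in WAR N, against 8.27, 6.15, 5.56 and 6.15 in Wistar N. Here Wistar N 1 lay among the WAR N arrays, 2.31 above the mean of the other Wistar N arrays. The difference was 0.85 (standard error 0.49, adjusted p = 0.954 from limma; 0.0298 with only the stimulated arrays) among stimulated and 1.52 (0.42, adjusted p = 0.02; 0.102 with only the naïve arrays) among naïve arrays, 2.10 without Wistar N 1.

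*Emcn*, which limits the adhesion of leukocytes, had 8.47, 8.47, 8.77, 8.58 and 8.47 in WAR S, against 8.31 and 8.12 in Wistar S. It had 8.79, 8.23, 8.91 and 8.83 in WAR N, against 8.52, 7.03, 6.89 and 6.86 in Wistar N. Stimulated groups lay close without overlap, and naïve groups were far apart except for Wistar N 1, with differences of 0.34 (standard error 0.34, adjusted p = 1 from limma) and 1.37 (0.29, adjusted p = 0.00545; 0.0526 with only the naïve arrays), 1.76 without Wistar N 1. *Podxl*, which helps to open the vessel lumen, had 8.18, 8.17, 8.88, 8.80 and 8.09 in WAR S, against 7.12 and 7.32 in Wistar S. It had 7.89, 7.58, 7.94 and 8.37 in WAR N, against 8.49, 6.11, 6.55 and 6.21 in Wistar N. The stimulated groups were separate, and Wistar N 1 was the highest naïve array. The differences of 1.21 among stimulated (standard error 0.48, adjusted p = 0.562 from limma) and 1.10 among naïve arrays (0.41, adjusted p = 0.0692) did not pass, and 1.65 without Wistar N 1 did (adjusted p = 3.09e-05).

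*Egfl7*, a secreted factor of the endothelial matrix, had 7.86, 7.83, 7.75, 7.52 and 7.50 in WAR S, against 6.76 and 6.96 in Wistar S. It had 8.00, 7.84, 8.17 and 7.85 in WAR N, against 7.83, 7.04, 6.87 and 6.86 in Wistar N. The strains did not overlap, though Wistar N 1 was within 0.01 of WAR N 2. The differences were 0.83 (standard error 0.21, adjusted p = 0.143 from limma; 0.0332 with only the stimulated arrays) and 0.82 (0.18, adjusted p = 0.00655; 0.0516 with only the naïve arrays), 1.04 without Wistar N 1.

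The transporters had the smallest medians of the classes, which were 0.23 among stimulated and −0.04 among naïve arrays. In limma 0 of 6 were called in either part, where 0.214% and 11.6% of all genes were called higher. *Mfsd2a* passed an unadjusted p of 0.05 in limma among stimulated arrays. Without Wistar N 1 the median was 0.19. *Slc7a5* and *Slc38a5* were then higher (33.3%, against 22.6% of all genes) and *Slc16a1* lower (16.7%, against 18.5%). *Slc2a1*, the glucose transporter of the barrier, had 9.94, 10.10, 10.77, 10.58 and 10.02 in WAR S, against 9.94 and 10.06 in Wistar S. It had 10.02, 9.95, 10.48 and 10.91 in WAR N, against 11.21, 9.81, 10.05 and 10.07 in Wistar N. The strains overlapped in both parts and Wistar N 1 was the highest naïve array, with differences of 0.28 (95% confidence interval −0.46 to 1.02) and 0.06 (−0.56 to 0.69), 0.37 without Wistar N 1 (−0.12 to 0.86).

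*Slc16a1*, a carrier of lactate and ketone bodies, ran the other way. It had 9.60, 9.66, 10.21, 9.88 and 9.57 in WAR S, against 9.93 and 9.90 in Wistar S. It had 9.54, 9.56, 9.42 and 9.55 in WAR N, against 9.32, 9.84, 10.11 and 10.32 in Wistar N. WAR N lay below Wistar N 2 to 4 and above Wistar N 1, and the stimulated groups overlapped. The differences were −0.13 (standard error 0.21, adjusted p = 1 from limma) and −0.38 (0.18, adjusted p = 0.152), and −0.57 without Wistar N 1 (0.14, adjusted p = 0.00438).

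*Mfsd2a*, a lipid carrier that holds down vesicle transport, had 9.06, 8.92, 9.38, 8.96 and 8.81 in WAR S, against 8.52 and 8.59 in Wistar S. It had 8.59, 8.74, 9.04 and 9.19 in WAR N, against 9.50, 8.94, 8.73 and 8.97 in Wistar N. Only the stimulated groups were separate, and the differences were 0.47 (standard error 0.20, adjusted p = 0.63 from limma) and −0.15 (0.17, adjusted p = 0.574), and 0.01 among naïve arrays without Wistar N 1. *Slc7a5*, an importer of large neutral amino acids, differed by 0.23 and 0.33, and *Slc38a5*, a glutamine carrier, by 0.23 and 0.34. *Tfrc*, the transferrin receptor, differed by −0.02 and −0.17, and its sign among stimulated arrays turned to 0.15 with the label series as a block. Without Wistar N 1 these 3 differed by 0.67, 0.55 and −0.27 among naïve arrays.

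Transcription factors had medians of 0.41 among stimulated arrays (0 of 6 called), 0.33 among naïve arrays (2 called) and 0.51 without Wistar N 1 (4 called). The shares of all genes called higher were 0.214%, 11.6% and 22.6%, in that order. Among stimulated arrays *Sox17*, *Erg*, *Ets1* and *Lef1* passed an unadjusted p of 0.05 in limma. *Sox17*, which specifies arterial endothelium, had 6.97, 6.94, 7.54, 6.97 and 7.40 in WAR S, against 6.31 and 6.26 in Wistar S. It had 7.57, 6.86, 7.50 and 7.66 in WAR N, against 6.74, 6.92, 6.68 and 6.46 in Wistar N. Wistar N 1 lay within the range of the other Wistar N arrays for this gene, and WAR N 2 lay below Wistar N 2. The differences were 0.88 (standard error 0.21, adjusted p = 0.105 from limma) and 0.70 (0.18, adjusted p = 0.0137; 0.0526 with only the naïve arrays), 0.71 without Wistar N 1.

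*Lef1*, through which WNT signals reach barrier genes, had 7.98, 7.75, 8.03, 7.95 and 7.66 in WAR S, against 7.30 and 7.29 in Wistar S. It had 8.20, 7.76, 8.04 and 8.22 in WAR N, against 7.87, 7.50, 7.25 and 7.07 in Wistar N. Stimulated groups were separate, and Wistar N 1 lay above WAR N 2, with differences of 0.58 (standard error 0.18, adjusted p = 0.3 from limma) and 0.63 (0.15, adjusted p = 0.011; 0.0673 with only the naïve arrays), 0.78 without Wistar N 1. *Erg*, an ETS factor of endothelial identity, differed by 0.56 and 0.35, and *Sox18* by 0.26 and 0.31, and they reached 0.51 and 0.52 without Wistar N 1, past the threshold. *Ets1*, of the same family as *Erg*, differed by 0.20 (95% confidence interval 0.01 to 0.39) and −0.02 (−0.17 to 0.14), and *Foxq1*, a forkhead factor of brain endothelium, by 0.03 (−0.18 to 0.25) and −0.04 (−0.22 to 0.14). The naïve differences without Wistar N 1 were −0.0025 (−0.17 to 0.17) for *Ets1* and 0.02 (−0.15 to 0.19) for *Foxq1*.

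Wistar N 1 lay above the other 3 Wistar N arrays for 29 of 34 members (85.3%, against 42.9% of all genes) and below them for *Slc16a1* and *Tfrc* (5.88%, against 29% of all genes). The median difference from the mean of the other 3 was 0.72, against 0.06 over all genes, and it was 1 or more for 10 members (29.4%, against 3.36% of all genes). It was above every other naïve array for 10 members (29.4%, against 20.8% of all genes). Its shares within the WAR N range (15 members, 44.1%) and below all WAR N arrays (9 members, 26.5%) equalled those of all genes (44.1% and 26.5%). The distance differed by class, with medians of 2.19 for sialomucins, 0.996 for receptors, 0.73 for transporters, 0.71 for junction and adhesion genes, 0.42 for transcription factors and 0.30 for *Nos3*, *Nostrin* and *Itm2a*. The widest distances were those of *Cd34* (2.31), *Podxl* (2.19) and *Flt1* (1.87). WAR N averaged 1.25 above Wistar N 1 for *Nostrin* and 0.71 for *Itm2a*.

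**Figure D3:**
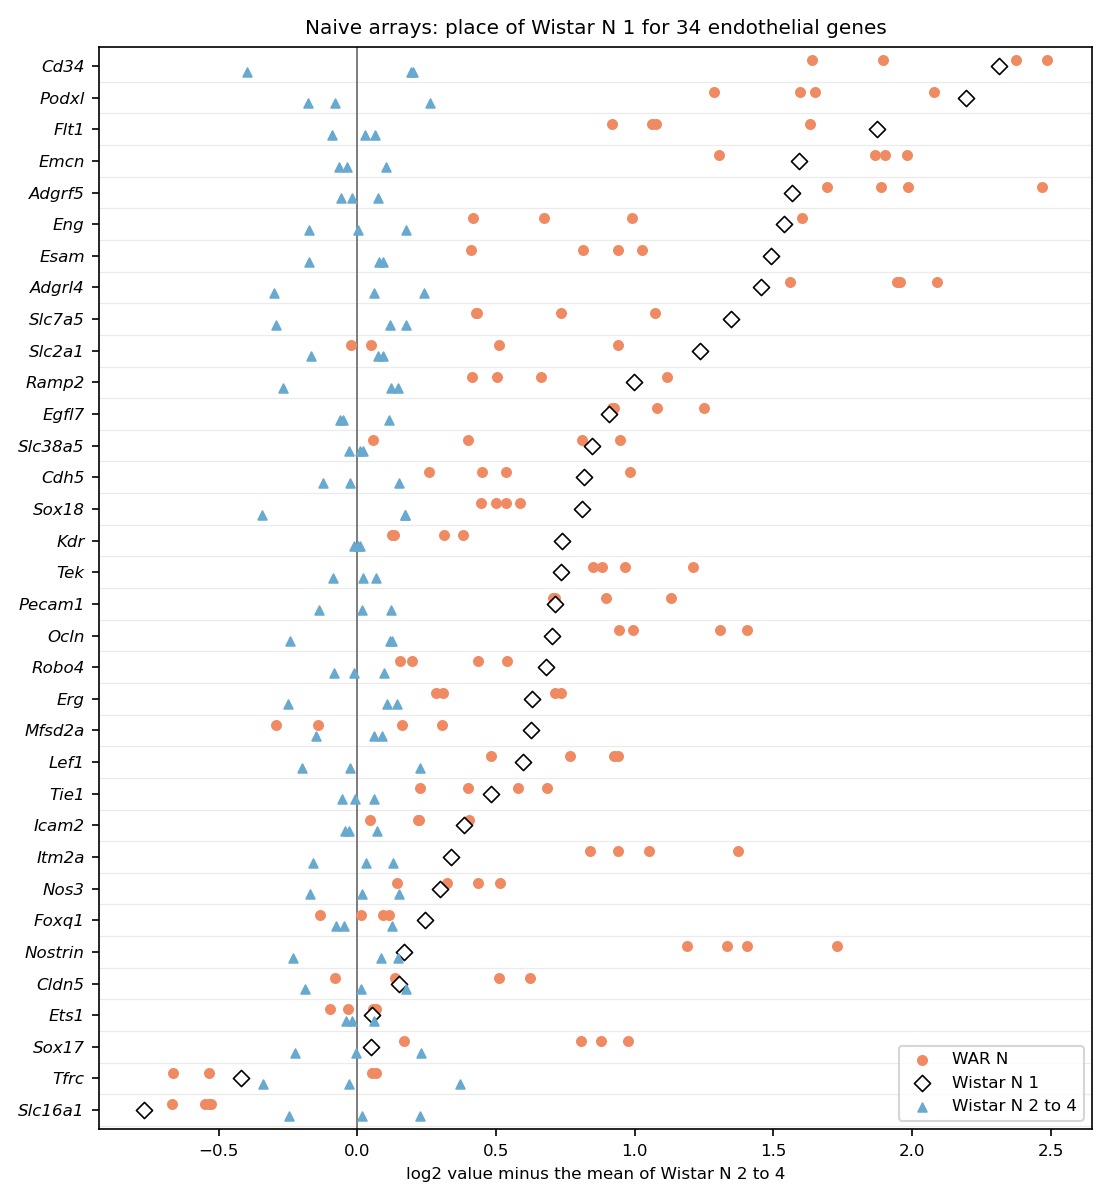
Log2 value of each naïve array minus the mean of Wistar N 2 to 4 for the 34 endothelial genes, with circles for WAR N (n = 4), the diamond for Wistar N 1 and triangles for Wistar N 2 to 4 (n = 3). The diamond lies above the triangles for 29 genes (85.3%, against 42.9% of all genes). For most of those 29 it lies among or above the circles, but for *Nostrin*, *Itm2a*, *Ocln*, *Tek*, *Adgrf5*, *Adgrl4* and *Egfl7* below all circles. Over the 34 genes it lies below all circles for 9 (26.5%), the same share as over all genes (26.5%).

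The strain difference was also compared between stimulated and naïve rats. With all arrays, 0 of 34 members differed between the parts in limma (0.062% of all genes were called in the positive and 0.0414% in the negative direction), while 4 passed an unadjusted p of 0.05 (*Itm2a*, *Mfsd2a* and *Ramp2* positive, 8.82% against 7.33% of all genes, and *Emcn* negative, 2.94% against 7.64%). Without Wistar N 1, the strain difference was smaller among stimulated than naïve arrays for *Emcn* (by −1.42, adjusted p = 0.000297 from limma) and *Cd34* (by −1.24, adjusted p = 0.00723), 2 of 34 members against 9.85% of all genes, and larger for *Itm2a* (by 0.66, adjusted p = 0.0414), 1 of 34 against 10.5% of all genes. These shares were below those of all genes.

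Other vessel genes that are not members were counted in the same way. Their lists were chosen with earlier results of these data known, so the shares are descriptions and not tests. Of 50 measured genes of the barrier and of endothelium, 2 were higher in WAR S (4%, against 0.214% of all genes) and 0 lower. The 2 were *Slc19a3* and *Abcb1a*. Without Wistar N 1, through the shared spread, 7 were higher (14%, against 1.1%). In WAR N 13 were higher (26%, against 11.6% of all genes) and 4 lower (8%, against 9.38%). The counts without Wistar N 1 were 19 (38%, against 22.6%) and 4 (8%, against 18.5%). The medians were 0.12 in both comparisons and 0.17 in the naïve one without Wistar N 1. The naïve differences with all arrays ran from −0.86 to 2.57. The lowest was that of *Vcam1*, with 8.35 to 8.53 in WAR N, against 8.28 in Wistar N 1 and 9.29 to 9.83 in the others. The genes named next were all higher in WAR. *Slc19a3*, a thiamine transporter, differed by 2.46 (adjusted p = 0.0212 from limma) among stimulated and 2.57 (adjusted p = 0.000817) among naïve arrays, 3.05 without Wistar N 1. *Abcb1a*, the efflux pump P-glycoprotein, differed by 1.18 (adjusted p = 0.0109 from limma) and 0.86 (adjusted p = 0.00232), 0.94 without Wistar N 1. The efflux pump *Abcg2* differed by 0.93 among naïve arrays (adjusted p = 0.000802 from limma), 0.87 without Wistar N 1.

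Of 37 measured genes of vessel signals and their partners, 0 were called in either direction between WAR S and Wistar S (limma), with a median of −0.0035. In WAR N 2 were higher (5.41%, against 11.6% of all genes), namely *Calcrl*, the receptor that *Ramp2* shapes, by 0.69 and *Tnfrsf19*, a target of WNT signals, by 0.47, and 1 was lower (2.7%, against 9.38%), *Wnt7b*, a WNT ligand, by −0.47. When Wistar N 1 was left out, 9 were higher (24.3%, against 22.6% of all genes) and 1 lower (2.7%, against 18.5%), and the 3 named genes differed by 0.88, 0.59 and −0.52. The shares of genes called higher in this list were below or near those of all genes.

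Markers of other cells of the tissue moved beside the members. The 14 measured pericyte and smooth muscle genes averaged 7.29 to 7.47 in WAR S, against 7.03 to 7.08 in Wistar S, and 7.10 to 7.49 in WAR N, against 7.45 in Wistar N 1 and 6.86 to 6.93 in the other Wistar N arrays. In limma 0 of 14 were called among stimulated arrays (3 without Wistar N 1, 21.4% against 1.1% of all genes). Among naïve arrays 2 of 14 were higher, a share near the 11.6% of all genes, *Rgs5*, a pericyte gene, by 1.71 and *Cnn1*, of smooth muscle, by 0.26. When Wistar N 1 was left out, 8 were higher (57.1%, against 22.6% of all genes), with 2.12 for *Rgs5* and 0.30 for *Cnn1*. The 16 microglia and macrophage genes averaged 7.81 to 8.04 in WAR S, against 7.64 to 7.70 in Wistar S, and 7.71 to 7.79 in WAR N, against 7.30 to 7.40 in Wistar N, where Wistar N 1 lay at 7.40. In limma 1 of 16 was higher in WAR S (6.25%, against 0.214% of all genes) and 6 in WAR N (37.5%, against 11.6%), with 0 lower. This naïve share was near the 35.3% of the members. Without Wistar N 1, 8 were higher in WAR N (50%, against 22.6%) and 2 lower (12.5%, against 18.5%). The 13 astrocyte genes averaged 10.85 to 11.08 in WAR S, against 11.28 to 11.30 in Wistar S, and 10.66 to 10.86 in WAR N, against 11.07 to 11.22 in Wistar N. In limma 0 of 13 were called among stimulated arrays, and 6 were lower in WAR N (46.2%, against 9.38% of all genes), with 0 higher. Without Wistar N 1, 7 were lower in WAR N (53.8%, against 18.5%) and 1 higher (7.69%, against 22.6%). Thus the pericyte list placed Wistar N 1 with WAR N, as the members did, and the microglia and astrocyte lists placed it with Wistar N. The 11 meningeal fibroblast genes averaged 7.28 to 7.41 in WAR N, against 7.48 in Wistar N 1 and 7.06 to 7.16 in the others, and 7.38 to 7.51 in WAR S, against 7.52 to 7.58 in Wistar S. The 6 red blood cell genes averaged 6.99 to 7.14 in WAR S, against 7.53 to 7.80 in Wistar S, and 6.92 to 7.25 in WAR N, against 7.37 in Wistar N 1 and 7.15 to 7.60 in the others. This list was lower in WAR S without overlap, opposite to the members. The 9 oligodendrocyte genes averaged 10.58 to 10.72 in WAR S, against 10.65 to 10.84 in Wistar S, and 10.37 to 10.62 in WAR N, against 10.86 in Wistar N 1 and 10.41 to 10.56 in the others. The 7 choroid plexus and ependyma genes averaged 6.77 to 7.07 in WAR S, against 7.14 to 7.18 in Wistar S, and 6.71 to 6.82 in WAR N, against 6.85 in Wistar N 1 and 6.54 to 6.69 in the others. Wistar N 1 was thus the highest naïve array for the meningeal, oligodendrocyte and choroid plexus lists. The mean over the 13 neuron genes overlapped between the strains in both parts, but single genes differed among naïve arrays. In limma 0 of 13 were called among stimulated arrays. Among naïve arrays 5 were lower in WAR (38.5%, against 9.38% of all genes) and 0 higher. Leaving out Wistar N 1 gave 5 lower (38.5%, against 18.5%) and 3 higher (23.1%, against 22.6%). The part of blood and of cell numbers in the members' differences was not tested.

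**Figure D4:**
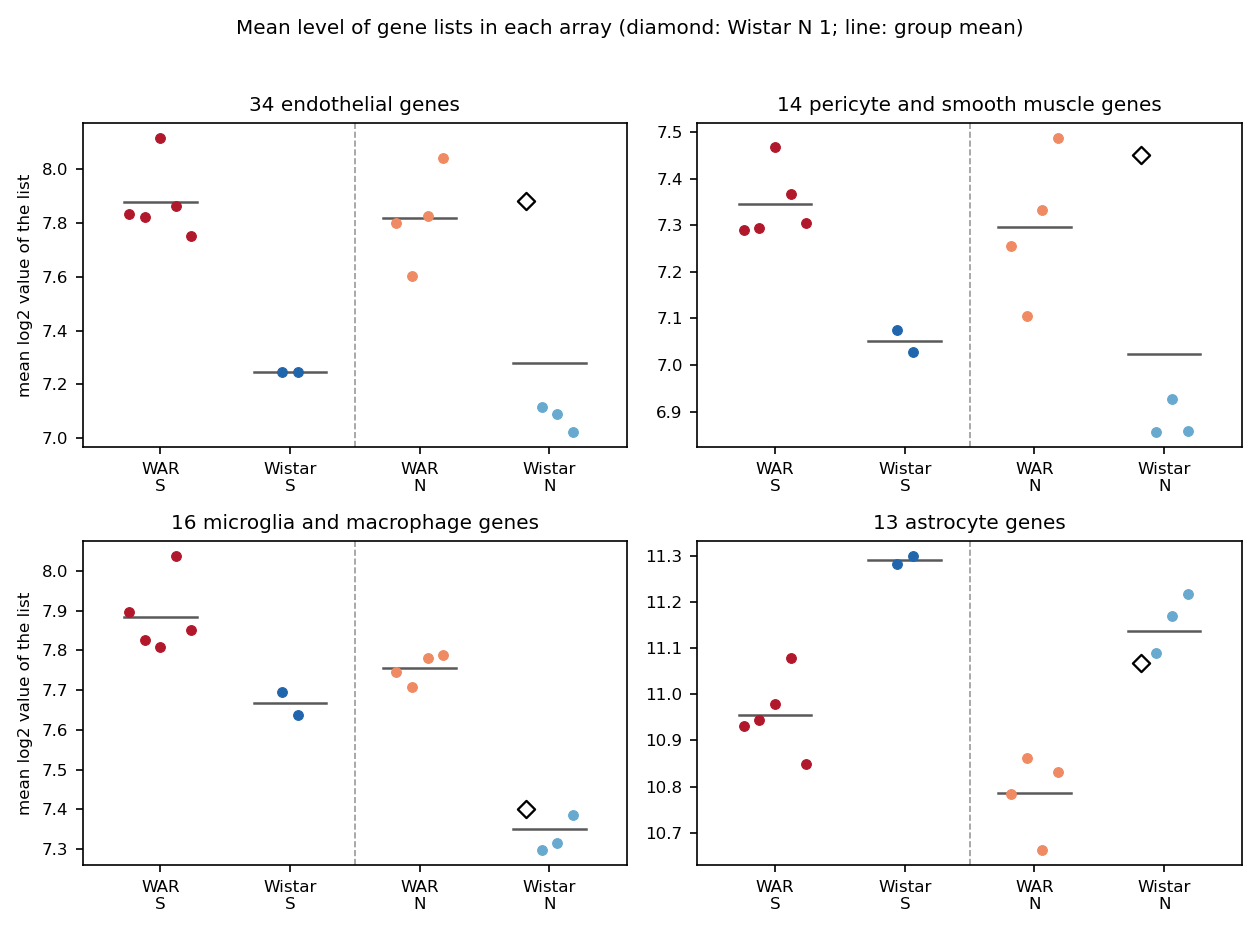
Mean log2 value of 4 gene lists in each array of WAR S (n = 5), Wistar S (n = 2), WAR N (n = 4) and Wistar N (n = 4), with lines at the group means, the diamond for Wistar N 1, and a dashed line between the parts. The endothelial mean of Wistar N 1, 7.88, lies among the WAR N arrays (7.60 to 8.04), whereas its microglia mean, 7.40, lies beside the other Wistar N arrays.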

How the data were processed

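The values of the 15 arrays are log2 intensities that the authors deposited after RMA, which subtracts background, makes the distributions of the arrays equal and sums up the probes of a set (version not given in the sources used here). Every sample column was used (0 left out). The notes on the whole series speak of sound exposure for every rat, and the paper's methods give other animal numbers than the labels; arrays were grouped by their own labels. The labels call the arrays biological replicates, and p-values measure the spread between them. Between 2675 and 3286 probe sets were identical in each pair of stimulated arrays, 2 to 13 in each pair of naïve arrays and 0 across parts.

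Of 29214 probe sets, 15310 carried 1 gene symbol of the platform's annotation. The brightest probe set per gene was kept. Strains were compared with limma 3.58.1 in R 4.3.3 (a mean per group, eBayes, Benjamini-Hochberg adjustment over all 14506 genes). The SAM test of the paper's methods was not run, and its thresholds were an alternative. The step was tested on simulated data.

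The members and gene lists were chosen with earlier results of these data known. All array values are given for members past the threshold in either comparison or with the largest change of their class, and the others by their differences. *Slc2a1* was added after its values were seen. Of other vessel genes, at most 6 per list are named, by smallest p, apart from *Vcam1*, which has the lowest naïve difference of its list. Alternatives were the model's samples, label series, replicate block, cyclic loess, all probe sets, dim genes left out, variance model, call rule and each array left out. Promoters came from RefSeq (GRCr8).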

Additional observations from a re-analysis of the deposited data

Results flagged for a closer look

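Of 102 sets of 1 member in 1 group of 4 or 5 arrays, 11 held an array far from the others. Wistar N 1 gave 6 of these flags, WAR S 3 gave 4 and WAR N 3 gave 1. Chance alone gives a share of about 0.05 only if the sets are independent. Members of the same array were flagged together, so the count cannot be held against that share. In WAR S the array WAR S 3 stood above the others for *Cldn5* (8.31, against 7.76 to 7.85), *Pecam1* (7.80, against 7.49 to 7.51), *Flt1* (9.04, against 8.41 to 8.46) and *Itm2a* (10.38, against 9.78 to 9.94).

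In Wistar N the array Wistar N 1 stood above the others for *Esam* (8.54, against 6.88 to 7.15), *Emcn* (8.52, against 6.86 to 7.03), *Slc38a5* (5.92, against 5.05 to 5.10), *Flt1* (9.25, against 7.28 to 7.44), *Kdr* (7.05, against 6.31 to 6.33) and *Adgrf5* (8.57, against 6.95 to 7.08). In WAR N the array WAR N 3 stood below the others for *Slc16a1* (9.42, against 9.54 to 9.56).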

How the results depend on the processing

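The counts of members called moved with several settings, and the medians of the log2 fold change stayed positive in all of them. For WAR S against Wistar S (4 called, 60 of 14506 genes), 10 were called with only the compared groups (274 genes). Within label series 1, 2 were called (14 genes, median of the members 0.39). With the replicate block 2 were called (16 of 14506 genes in either direction). The thresholds of the methods (2-fold and unadjusted p 0.05 in limma, here the fold rule) called 8 members (39 of 14506 genes). With each array of WAR S, WAR N or Wistar N left out, 4 to 12 were called, the most without Wistar N 1 (261 of 14506 genes). For WAR N against Wistar N (12 called, 3037 of 14506 genes), 6 were called with only the compared groups (879 genes) and 2 within label series 1 (217 genes). Within series 2, an alternative added after the data were seen, 24 were called (3775 of 14506 genes, median of the members 0.73). The fold rule called 6 members (256 of 14506 genes). With each array left out 11 to 28 were called. The most, 27 higher and 1 lower, were called without Wistar N 1, where 5968 of 14506 genes were called. For the difference between the strain effects (0 called), 1 was called by the fold rule (189 of 14506 genes). With each array left out 0 to 3 were called, the most without Wistar N 1 (2956 of 14506 genes). The replicate numbers did not pair the arrays, with correlations of same-numbered arrays between −0.306 and 0.0598.

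Signs turned for members that were not past the threshold with all arrays. Among stimulated arrays *Tfrc* turned to 0.15 with the label series as a block, 0.16 within series 1 and 0.091 with the replicate block, and ran from −0.11 to 0.071 with each array left out, as *Foxq1* did from −0.0027 to 0.073. Among naïve arrays within series 1, *Cldn5* turned to −0.13, *Esam* to −0.048, *Icam2* to −0.036, *Slc2a1* to −0.65, *Tfrc* to 0.085, *Kdr* to −0.15, *Eng* to −0.14 and *Robo4* to −0.12, and within series 2 *Mfsd2a* turned to 0.28, *Ets1* to 0.041 and *Foxq1* to 0.026. *Kdr* turned to −0.024 after cyclic loess. With each naïve array left out, *Slc2a1* ran from −0.13 to 0.37, *Kdr* from −0.011 to 0.24, *Mfsd2a* from −0.25 to 0.0089, *Ets1* from −0.039 to 0.017 and *Foxq1* from −0.085 to 0.022. The causes were not tested. Wistar S has 2 arrays, which limits the precision, and *Icam2*, *Slc38a5*, *Robo4* and *Foxq1* are among the dimmest genes (the lowest share of 0.25 by mean level).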
